A study of Mus musculus with 2 samples.

Results

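The chromatin of 43 cell cycle genes was examined in nuclei of hepatic stellate cells, liver pericytes that store vitamin A. The 43 genes are the cyclins, the cyclin-dependent kinases (CDKs) and their inhibitors, the RB and E2F families, and genes of DNA replication and mitosis, out of 21883 protein-coding genes. They were chosen by name from these families, and all 43 symbols matched the RefSeq gene table. They were read in 4 classes: 8 genes that act in the G1 phase, 7 inhibitors, 11 genes of the RB and E2F families, and 17 genes of S phase and mitosis. Open chromatin was measured by ATAC-seq, in which the transposase Tn5 cuts and tags accessible DNA. The data were 2 peak lists, replicates A and B of 1 control group, and the design holds no contrast of conditions. The mice were healthy C57BL6/JBomTac animals on a chow diet, carrying the mCherry-Rpl10a allele at ROSA26 and the Lrat-cre transgene. Nuclei were sorted on mCherry-RPL10A, so the sample holds the cells in which the Lrat-driven Cre had acted. The labels give no age, and nothing in them ties A and B to different animals. The spread between the replicates may therefore be technical.

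Cells leave quiescence when D-type cyclins with CDK4 or CDK6, and then cyclin E with CDK2, phosphorylate the RB family of proteins. Unphosphorylated RB proteins hold E2F transcription factors in check, and released E2F drives the genes of DNA replication, while genes of mitosis follow later in the cycle. CDK inhibitors oppose these kinases. In the healthy liver, stellate cells rarely divide, and they enter the cycle when injury activates them. The labels do not state whether the sorted cells were cycling, and the peak lists measure neither transcription nor DNA content.

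Replicate A had 36577 peaks, with a median width of 232 bp, and replicate B had 28794, with a median width of 227 bp. The lists give no read counts, so depth is unknown and intervals on shares cover counting error only. The fold enrichment given with each peak is the authors' own value, a linear ratio over the local background of the peak caller, and it was not scaled between the lists. The names of the peaks in B start with a term for oil, although the label gives control and chow. The label was taken as it stands, and a difference in treatment between A and B cannot be told apart from the spread between replicates. The cell type was checked on marker genes. A replicated peak was sought within 1000 bp of a listed start, or of either gene end where none was listed. It was found at 10 of 10 stellate genes, against 43.1% of all protein-coding genes. The counts were 0 of 6 hepatocyte, 0 of 6 sinusoidal endothelial, 0 of 6 Kupffer and myeloid, 0 of 4 cholangiocyte and 0 of 4 lymphocyte genes. A peak in A alone lay there at 1 of 6 sinusoidal endothelial and 1 of 4 cholangiocyte genes. In the gene body and 20 kb on either side, replicated peaks were found at 10 of 10 stellate genes, against 64.6% of all protein-coding genes. There the counts were 2 of 6 hepatocyte, 2 of 6 sinusoidal endothelial, 0 of 6 Kupffer and myeloid, 0 of 4 cholangiocyte and 3 of 4 lymphocyte genes.

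Nearly every cell cycle gene had open chromatin at or near it. A peak was called replicated where an entry of A and an entry of B overlapped by at least 1 bp. Within the gene body and 20 kb on either side, here the locus, 42 of 43 genes had a replicated peak (97.7%), against 64.6% of all protein-coding genes. The exception was Plk1, the polo-like kinase of mitotic entry, which had 1 peak in A and none in B. At Rbl1, E2f2 and Cdkn2c the only replicated peak lay at another coding gene. With the 10000 most significant peaks of each list the count was 28, against 41.6% of all protein-coding genes. With no flank it was 34, against 48.7%, and by nearest gene end 37, against 49.5%. The median was 2 replicated peaks per locus in the cell cycle genes and 1 in all protein-coding genes. The mean was 2.30 ± 1.70 in the cell cycle genes (SD over 43 genes) and 1.55 ± 1.82 in all protein-coding genes.

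Most of these genes were open at their start, although most peaks in their loci lay elsewhere. Of 99 pairs of a gene and a replicated peak in its locus, 42 lay at the gene's own end or start. Another coding gene held 30, and the rest (27.3%) were distal. Over all replicated peaks 58.0% were distal, a share that also counts peaks outside any gene's locus and is not a like measure. Per locus, the mean was 0.628 distal of 2.30 replicated peaks in the cell cycle genes. It was 1.875 of 3.625 in the G1 genes and 0.593 of 1.55 in all protein-coding genes. In the G1 genes 6 of 29 pairs were at the gene's own end or start and 15 were distal (51.7%). Ccnd3 and Cdk6 gave 5 of these distal pairs each. A start was called open where a replicated peak lay within 1000 bp of a start listed by RefSeq, or of either gene end for the 10 genes with no listed start. Of the 33 genes with a listed start 27 were open there, against 44.2% of protein-coding genes with one. By the full rule 34 of 43 starts were open (79.1%), against 43.1% of all protein-coding genes. With the 10000 most significant peaks of each list the count was 21, against 23.8% of all protein-coding genes. Taken alone, A had a peak at 38 of the starts and B at 39, against 48.2% and 46.0% of all protein-coding genes. Each of the 43 genes had a start peak in at least 1 of the replicates, against 50.6% of all protein-coding genes. Distal peaks, those more than 1 kb from every end and listed start of a coding gene, were found at 16 of 43 loci (37.2%), against 29.2%. Because genes are not replicates of a condition, these shares carry no test.

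The 4 classes differed in where the open chromatin lay. Distal peaks were found at 6 of 8 G1 genes (75%), 2 of 7 inhibitors (28.6%), 3 of 11 RB and E2F genes (27.3%) and 5 of 17 S-phase and mitosis genes (29.4%). Apart from the G1 genes, each class thus sat near the 29.2% of all protein-coding genes. Open starts showed another order, with 15 of 17 S-phase and mitosis genes (88.2%), 6 of 7 inhibitors (85.7%), 8 of 11 RB and E2F genes (72.7%) and 5 of 8 G1 genes (62.5%). All 4 shares were above the 43.1% of all protein-coding genes, but their order depended on the settings. With the 10000 most significant peaks of each list, the share was 58.8% in S-phase and mitosis genes, 28.6% in inhibitors, 45.5% in RB and E2F genes and 4 of 8 in G1 genes, against 23.8% of all protein-coding genes. With a window of 2500 bp, G1 genes reached 87.5% and inhibitors 85.7%, against 45.6%. The share of G1 genes with a distal peak was 37.5% when distal meant more than 2500 bp away, against 25.4% of all protein-coding genes. It was 25% when the 10000 most significant peaks of each list were used, against 9.28%.

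**Figure D1:**
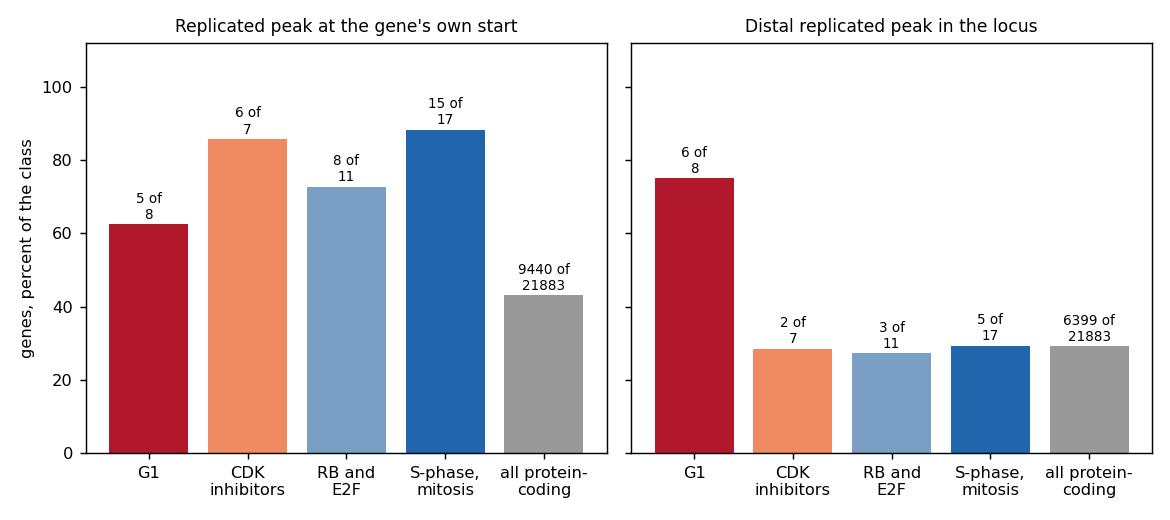
The left panel plots the percentage of genes in each class with a replicated peak within 1000 bp of their own start, and the right panel the percentage with a distal replicated peak in the locus; the numbers over the bars are genes out of genes in the class. S-phase and mitosis genes stand highest on the left, at 88.2%, and G1 genes highest on the right, at 75%, against 43.1% and 29.2% of all protein-coding genes.

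Of the G1 genes, Ccnd3, which encodes cyclin D3, had the most replicated peaks of all 43 genes, 10 in its locus. Per 100 kb of locus it had 7.43, below Mcm7 with 10.5, Pcna with 9.11 and E2f4 with 8.38. Both of its listed starts were open: the upstream one carried a peak of 6.86-fold enrichment in A and 7.12-fold in B, and the one further into the gene a peak of 12.8-fold in A and 12.9-fold in B. The upstream start was the weaker one in both replicates. A further 5 replicated peaks lay inside the gene and away from any start. The strongest of them in A, at chr17:47559828-47560137 (mm10), had 17.1-fold enrichment in A and 14.6-fold in B. It stood above both start peaks of the gene in both replicates. The remaining 3 peaks of the locus lay at Taf8 and at the neighbours Bysl, Gm20517 and Med20, so they cannot be assigned to Ccnd3 alone.

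Cdk6, the kinase partner of the D-type cyclins, resembled Ccnd3 in its distal peaks but not at its start. Its start had a peak in A of 5.63-fold enrichment, below most peaks of that list, and none in B. Inside the gene, 5 replicated peaks lay between 124 and 173 kb from the start. The one farthest in, at chr5:3516758-3517047, had 16.6-fold enrichment in A and 9.18-fold in B. The stretch nearer the start held 3 further peaks in A alone and 1 in B alone, none of them replicated. The 250 bases before the listed start are shown because this promoter lacked a replicated peak while the gene body held 5. They are from RefSeq (GRCm38.p6, chr5:3343643-3343892, plus strand), and capitals here and in the other promoters mark matches to the E2F, CHR, CCAAT and CRE motifs defined with the promoter results. This stretch had none.
Cdk6: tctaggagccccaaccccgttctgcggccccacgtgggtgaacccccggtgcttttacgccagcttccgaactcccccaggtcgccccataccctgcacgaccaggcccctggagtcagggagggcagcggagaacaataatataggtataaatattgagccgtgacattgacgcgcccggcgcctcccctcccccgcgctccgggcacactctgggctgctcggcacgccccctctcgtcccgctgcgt

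The other D-type cyclins had weak or unreplicated peaks at their ends. Ccnd1, which encodes cyclin D1, the D-type cyclin best known for its induction by growth factors, had a peak at its higher-numbered end in B alone, of 8.04-fold enrichment. Its locus held 2 replicated peaks. One lay 1.78 kb outside the gene, at chr7:144941607-144941805, with 10.8-fold enrichment in A and 10.1-fold in B, and the other lay at the end of LTO1. The replicated peak nearest to Ccnd1 was therefore outside the 1000 bp window but inside one of 2500 bp. Ccnd2, which encodes cyclin D2, had an end peak of 6.75-fold in A and 6.83-fold in B, the lowest of the 34 open starts in both replicates. A stronger peak lay inside the gene at chr6:127150957-127151137, with 9.01-fold enrichment in A and 13.7-fold in B, and the third replicated peak of the locus lay at Tigar.

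The starts of Ccne1 and Cdk2 were stronger than the replicated start or end peaks of the D-type cyclins, while Ccne2 had no replicated one. Ccne1, which encodes cyclin E1, had a start peak of 17.1-fold enrichment in A and 15.0-fold in B. Its locus also held the strongest distal peak in A of the 43 loci, at chr7:38084867-38085258, with 21.5-fold in A and 16.5-fold in B, 12.7 kb outside the gene. A weaker distal peak lay 4.57 kb beyond the start, with 10.8-fold in A and 9.98-fold in B. Ccne2, which encodes cyclin E2, had an end peak in B alone, of 8.50-fold, and 1 replicated peak inside the gene of 7.43-fold in A and 7.49-fold in B. The starts of the kinase genes Cdk2 and Cdk4 were open in both replicates, with 18.3-fold and 14.7-fold enrichment in A and 19.9-fold and 19.3-fold in B. Neither locus held a distal peak, and the other replicated peak of each locus sat at a neighbouring gene.

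**Figure D2:**
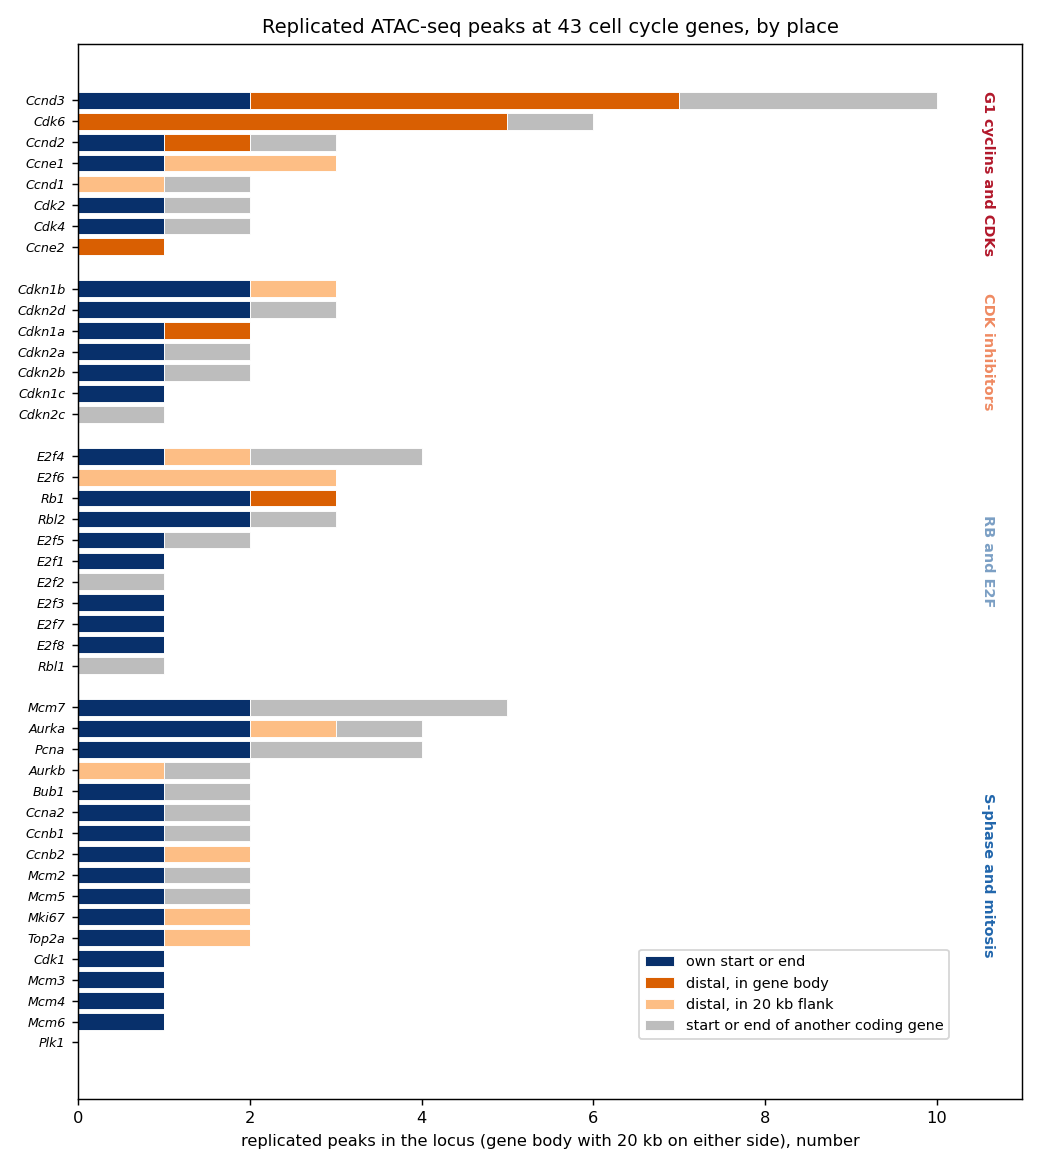
Each bar shows the replicated peaks in the locus of 1 cell cycle gene, split into peaks at its own start or end, at another coding gene, and distal ones inside or outside the gene. Ccnd3, with 10 peaks, and Cdk6, with 6, lead, each with 5 distal peaks inside the gene, and Plk1 has none.

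Most CDK inhibitors had an open start, but their start peaks had the lowest median fold enrichment of the 4 classes. Cdkn1a encodes p21, the inhibitor induced by p53, and has 2 listed starts. The first had no peak in either replicate. The second, further into the gene, had a peak of 9.91-fold enrichment in A and 11.1-fold in B, and a distal peak inside the gene, at chr17:29095340-29095671, had 10.8-fold in A and 8.42-fold in B. The open chromatin of Cdkn1a thus lay inside the annotated gene. The stretches before the 2 starts are shown side by side because one had no peak and the other a replicated one (chr17:29090729-29090978 and chr17:29093519-29093768, plus strand). Neither held a match to the 4 motifs in capitals.
Cdkn1a, first start: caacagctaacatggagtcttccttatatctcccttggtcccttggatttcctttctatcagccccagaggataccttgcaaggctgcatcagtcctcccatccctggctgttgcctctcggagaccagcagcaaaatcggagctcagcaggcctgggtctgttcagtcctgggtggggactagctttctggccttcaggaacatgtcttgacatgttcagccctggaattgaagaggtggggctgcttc
Cdkn1a, second start: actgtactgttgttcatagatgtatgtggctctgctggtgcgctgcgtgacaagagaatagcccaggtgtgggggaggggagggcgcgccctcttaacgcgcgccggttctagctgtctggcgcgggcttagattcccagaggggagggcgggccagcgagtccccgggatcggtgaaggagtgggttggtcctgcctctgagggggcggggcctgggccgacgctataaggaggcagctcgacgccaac

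Cdkn1b, which encodes p27, the inhibitor associated with quiescence in many cell types, had 3 replicated peaks. At the start, 2 peaks lay side by side: the first had 8.76-fold enrichment in A and 9.88-fold in B, and the second, 260 bp into the gene, had 5.99-fold in A and 7.51-fold in B. The third, at chr6:134928586-134928912, lay 3.06 kb outside the gene, with 8.52-fold in A and 14.0-fold in B. By fold enrichment the start peaks of Cdkn1b ranked 22760 and 34951 among the 36577 peaks of A, and 13542 and 22258 among the 28794 of B. Cdkn1c, which encodes p57, had 1 replicated peak, at its own end, of 15.9-fold in A and 11.5-fold in B.

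The INK4 genes, whose products bind CDK4 and CDK6, differed among themselves. Cdkn2b had the strongest inhibitor start, at chr4:89310922-89311227, with 18.0-fold enrichment in A and 21.8-fold in B. The neighbouring Cdkn2a has 2 listed starts, an upstream one for the ARF transcript and a downstream one for the INK4A transcript. The upstream start was called open through a peak of 8.28-fold in A and 7.16-fold in B, 506 bp outside the gene, and B alone had a nearer one of 8.96-fold. The downstream start had no peak in either replicate. The stretches before both starts are shown because only the upstream one had a replicated peak nearby (upstream, chr4:89294620-89294869; downstream, chr4:89282193-89282442; minus strand). The upstream stretch held 1 motif match, to E2F, and the downstream stretch none.
Cdkn2a, upstream start: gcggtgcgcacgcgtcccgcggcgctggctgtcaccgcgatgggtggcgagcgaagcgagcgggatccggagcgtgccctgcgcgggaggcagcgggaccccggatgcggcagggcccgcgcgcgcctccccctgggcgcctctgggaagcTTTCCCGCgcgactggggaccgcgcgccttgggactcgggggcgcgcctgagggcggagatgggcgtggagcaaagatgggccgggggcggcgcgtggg
Cdkn2a, downstream start: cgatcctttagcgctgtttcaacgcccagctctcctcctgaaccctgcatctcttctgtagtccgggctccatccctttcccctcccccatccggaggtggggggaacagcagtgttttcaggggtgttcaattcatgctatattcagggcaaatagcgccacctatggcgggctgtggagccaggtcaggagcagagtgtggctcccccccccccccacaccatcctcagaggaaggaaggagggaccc

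The loci of Cdkn2a and Cdkn2b overlap, so each of these 2 replicated peaks was counted in both. Cdkn2d had 3 replicated peaks, of which the start peak had 12.4-fold enrichment in A and 11.9-fold in B. A second lay at its lower-numbered end, which is also an end of Kri1, with 10.1-fold in A and 9.76-fold in B, and the third, at Atg4d and Kri1, had 15.7-fold in A and 7.98-fold in B. Cdkn2c was the inhibitor without an open start. B alone had a peak at each of its 2 listed starts, of 7.98-fold and 9.11-fold. Its locus held 4 peaks in B alone, and the single replicated peak lay at Faf1.

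In the RB family, each of the 3 genes had a different pattern. Rb1, which encodes the retinoblastoma protein, had peaks at its higher-numbered end, where 2 neighbouring entries of A, both of 7.21-fold enrichment, overlapped a single entry of B, of 9.80-fold. A distal peak inside the gene, at chr14:73209397-73209551, had 7.96-fold in A and 8.001-fold in B. In A all 3 lay below the list's median of 9.97-fold. Rbl2, which encodes p130, the RB relative most associated with quiescence, had 2 replicated start peaks, of 13.3-fold and 9.02-fold in A and of 12.6-fold and 12.1-fold in B. The remaining peak lay at Aktip, with 19.3-fold in A and 16.7-fold in B. Rbl1, which encodes p107, had a start peak in A alone, of 5.92-fold, and its only replicated peak lay at Samhd1.

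The E2F genes were open at the start in 6 of 8 cases. E2f3, an activator, had the strongest start peak of the family, with 22.1-fold enrichment in A and 20.9-fold in B, and the activator E2f1 followed with 20.6-fold in A and 18.3-fold in B. The third activator, E2f2, had peaks at both of its listed starts in A, of 12.0-fold and 14.8-fold, and none there in B. The atypical repressors E2f7 and E2f8 had start peaks of 12.0-fold and 15.3-fold in A, and of 14.3-fold and 16.9-fold in B. Among E2f4 and E2f5, E2Fs that act with RB-family proteins in repression, the end peaks had 19.0-fold and 14.6-fold in A and 12.6-fold and 16.5-fold in B. E2f4 led the class with 4 replicated peaks, but its end peak is also at Exoc3l, 2 of its peaks lay at Exoc3l and 4931428F04Rik, and the distal one, 14.3 kb outside the gene, had 8.97-fold in A and 7.20-fold in B.

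E2f6, a repressor that does not bind RB proteins, had all of its replicated peaks outside the gene. Its start had a peak in B alone, of 6.21-fold enrichment. Its 3 replicated peaks were all distal, at 1.78, 9.51 and 18.5 kb outside the gene, with 11.2-fold, 14.5-fold and 14.6-fold in A and 9.47-fold, 12.2-fold and 11.4-fold in B. The strongest peak in any of the 43 loci in A, of 27.1-fold in A and 25.4-fold in B, lay in the locus of E2f5, but at an end of Rbis, 4.89 kb outside E2f5.

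**Figure D3:**
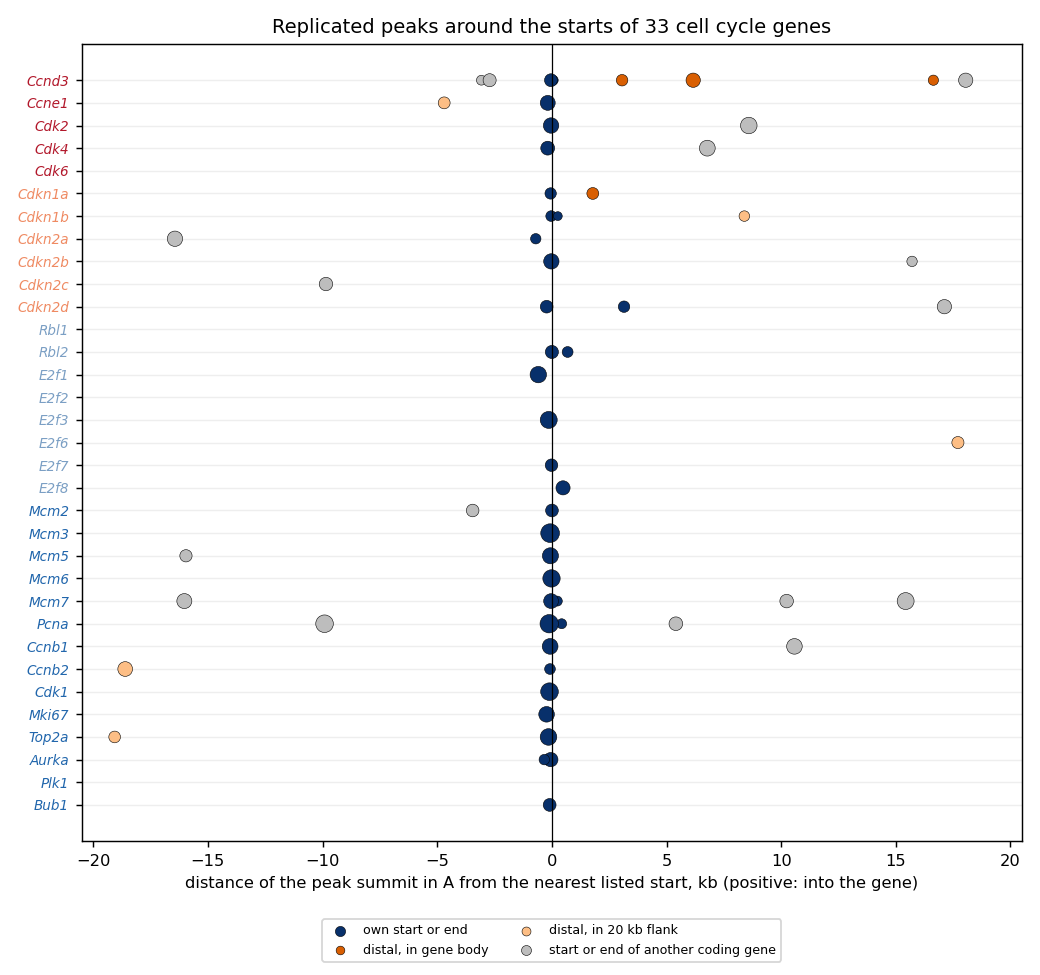
Summits of replicated peaks are plotted by their distance in kb from the nearest listed start of the 33 cell cycle genes that have one. Positive distances run in the direction of the gene and can reach past its far end. Point area grows with fold enrichment in A, and peaks beyond 20 kb are not drawn. Most genes have a summit close to 0. Distal summits are drawn for Ccnd3, Ccne1, Cdkn1a, Cdkn1b, E2f6, Ccnb2 and Top2a.

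The replication genes were open at the start without exception. All 7 had an open start: Mcm2, Mcm3, Mcm4, Mcm5, Mcm6 and Mcm7, which encode the subunits of the replicative helicase, and Pcna, which encodes the sliding clamp of DNA polymerase. None had a distal peak, against 29.2% of all protein-coding genes with one. The start peak of Mcm3 had 26.8-fold enrichment in A and 25.6-fold in B, and that of Pcna 25.9-fold in A and 21.5-fold in B. No other of the 34 start peaks exceeded them in A, and in B the one that exceeded Pcna besides Mcm3 was that of Cdkn2b. Mcm6 followed with 23.1-fold in A and 17.7-fold in B, Mcm5 with 19.8-fold in A and 19.7-fold in B, and Mcm4, at an end shared with Prkdc, with 19.0-fold in A and 17.1-fold in B. Mcm7 and Mcm2 were lower, with 16.9-fold and 12.5-fold in A and 13.8-fold and 10.1-fold in B.

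Mcm7 had the most replicated peaks of the S-phase and mitosis genes, 5, but 3 of them lay at other genes (Zfp113, Cops6, and Taf6 with Cnpy4). Its own 2 peaks also lie at Ap4m1. Pcna had 4 replicated peaks, of which 2 at its own start are shared with Cds2, 1 lay at Cds2 with 23.7-fold in A and 19.4-fold in B, and 1 at Tmem230 with 14.3-fold in A and 11.7-fold in B. High counts in these loci thus included neighbouring genes.

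Among the mitosis genes, 8 of 10 had an open start. Cdk1, the kinase that drives mitosis, had a start peak of 23.9-fold enrichment in A and 17.5-fold in B, and Ccna2, which encodes cyclin A2, had 22.4-fold in A and 20.2-fold in B, at an end near Bbs7. Ccnb1, which encodes cyclin B1, had 19.0-fold in A and 15.95-fold in B. All 3 were above the median of all open protein-coding genes in both replicates. Top2a, which encodes topoisomerase II alpha, had 21.1-fold in A and 12.2-fold in B, and Mki67, which encodes the proliferation marker Ki-67, had 18.7-fold in A and 11.9-fold in B. These marker genes were therefore open at the start in both replicates of nuclei from healthy liver, with the lower value in B in both cases.

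Aurka, the centrosome kinase of mitosis, had 4 replicated peaks. Its stronger start peak had 15.7-fold enrichment in A and 14.9-fold in B, the weaker 8.43-fold in A and 10.8-fold in B, and both also lie at Cstf1. The peak at Fam210b had 21.1-fold in A and 17.9-fold in B, and a distal one had 4.77-fold in A and 5.81-fold in B. Bub1, a kinase of the spindle checkpoint, had a start peak of 12.6-fold in A and 8.80-fold in B, and Ccnb2, which encodes cyclin B2, 8.82-fold in A and 12.6-fold in B. Aurkb, the kinase of the chromosomal passenger complex, had an end peak in B alone, of 7.74-fold. Plk1 had a start peak in A alone, of 9.45-fold, at chr7:122159326-122159516.

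The 5 distal peaks of the S-phase and mitosis genes all lay outside the gene, and all belonged to mitosis genes. They were 18.5 kb from Ccnb2, 19.9 kb from Mki67, 18.9 kb from Top2a, 7.32 kb from Aurka and 5.23 kb from Aurkb. With no flank the share of S-phase and mitosis genes with a distal peak was 0%, against 15.0% of all protein-coding genes, and when each peak was given only to the gene with the nearest end it was 5.88%, against 21.0%. By contrast, 4 of 8 G1 genes (Ccnd2, Ccnd3, Ccne2 and Cdk6) had a distal peak inside the gene body.

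The promoters of Cdk1, Top2a, Mcm6 and Plk1 are shown because the first 3 had a replicated start peak, of over 20-fold enrichment in A, and the fourth had a start peak in A alone (chr10:69352913-69353162, minus strand; chr11:99024190-99024439, minus strand; chr1:128359706-128359955, minus strand; chr7:122159185-122159434, plus strand). Capitals mark 6 matches in Cdk1, 10 in Top2a, 5 in Mcm6 and 1 in Plk1. Plk1 also held 1 CHR in the bases after the start, which are not printed. Matches in other open promoters were not always fewer. With the bases after the start counted, that of Mcm5 held 2 E2F matches, 3 CCAAT boxes and 1 CRE. The upstream promoter of Mcm7 held 2 E2F matches, 1 CHR and 3 CCAAT boxes. Some other open promoters held fewer matches than those of Cdk1, Top2a and Mcm6. That of Pcna, with a start peak of 25.9-fold in A and 21.5-fold in B, held 1 CCAAT box and no E2F or CHR match.
Cdk1: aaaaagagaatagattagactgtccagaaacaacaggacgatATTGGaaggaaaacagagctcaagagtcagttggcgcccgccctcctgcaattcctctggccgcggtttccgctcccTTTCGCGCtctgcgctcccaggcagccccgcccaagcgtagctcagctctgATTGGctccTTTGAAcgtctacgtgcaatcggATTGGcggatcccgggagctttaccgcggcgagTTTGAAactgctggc
Top2a: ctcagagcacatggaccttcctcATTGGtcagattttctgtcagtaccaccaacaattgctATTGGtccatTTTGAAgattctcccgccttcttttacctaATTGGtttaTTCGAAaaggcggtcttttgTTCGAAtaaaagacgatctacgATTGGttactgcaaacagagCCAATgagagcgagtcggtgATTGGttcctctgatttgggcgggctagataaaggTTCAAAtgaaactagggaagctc
Mcm6: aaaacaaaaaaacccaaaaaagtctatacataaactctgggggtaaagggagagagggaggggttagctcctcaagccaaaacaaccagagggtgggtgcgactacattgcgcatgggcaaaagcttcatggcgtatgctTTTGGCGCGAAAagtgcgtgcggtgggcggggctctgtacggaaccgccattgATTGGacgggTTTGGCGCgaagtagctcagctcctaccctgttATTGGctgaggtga
Plk1: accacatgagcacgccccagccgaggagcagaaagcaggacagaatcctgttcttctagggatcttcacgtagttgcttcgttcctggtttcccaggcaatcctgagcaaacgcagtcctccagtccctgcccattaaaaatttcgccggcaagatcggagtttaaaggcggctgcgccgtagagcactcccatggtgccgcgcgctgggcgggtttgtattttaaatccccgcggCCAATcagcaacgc

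The 9 genes without an open start had a start peak in 1 replicate alone. The start was called in A alone for Cdk6, Rbl1, E2f2 and Plk1, and in B alone for Ccnd1, Ccne2, Cdkn2c, E2f6 and Aurkb. These 11 start peaks had between 5.63-fold and 14.8-fold enrichment. Their presence in 1 list only cannot be told apart from a difference in depth, which is unknown.

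Start peaks of the S-phase and mitosis genes had the highest median fold enrichment of the 4 classes in both replicates. For each gene the start peak strongest in A was taken, with the overlapping entry of B for the value in B. The median fold enrichment of these peaks was 19.0 in A and 15.95 in B over the 15 open S-phase and mitosis genes. It was 14.7 in A and 15.0 in B over the G1 genes, 11.2 in A and 11.3 in B over the inhibitors, and 15.0 in A and 15.4 in B over the RB and E2F genes. Over all open protein-coding genes it was 15.2 in A and 13.7 in B. The inhibitors were thus below the median of all open genes in both replicates. Within the S-phase and mitosis genes, the median was 19.8 in A and 17.7 in B over the 7 replication genes, and 18.9 in A and 13.75 in B over the 8 open mitosis genes. The mitosis genes were thus close to all open genes in B. Values above the upper quartile of all open genes in both replicates were found in 7 of 15 S-phase and mitosis genes (46.7%), against 16.5% of all open genes. They were 5 of 7 replication genes and 2 of 8 mitosis genes.

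The start peaks of the S-phase and mitosis genes were mostly higher in A than in B. In 14 of 15 S-phase and mitosis genes (93.3%) the value was higher in A, against 67.3% of all open genes. The exception was Ccnb2. The value was higher in A in 1 of 5 G1 genes, 3 of 6 inhibitors and 4 of 8 RB and E2F genes. Among 51 other cell cycle genes, described below, 47 had an open start. The value was higher in A in 33 of these 47 (70.2%), with a median ratio of A over B of 1.13. The median ratio of A over B was 1.21 in the S-phase and mitosis genes, 0.989 in the G1 genes, 0.969 in the inhibitors, 0.980 in the RB and E2F genes and 1.11 in all open genes. Fold enrichment was not scaled between lists, and the start peaks were chosen by their value in A. The part of this choice, of depth or of the cells sorted in the higher values of A was not tested.

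**Figure D4:**
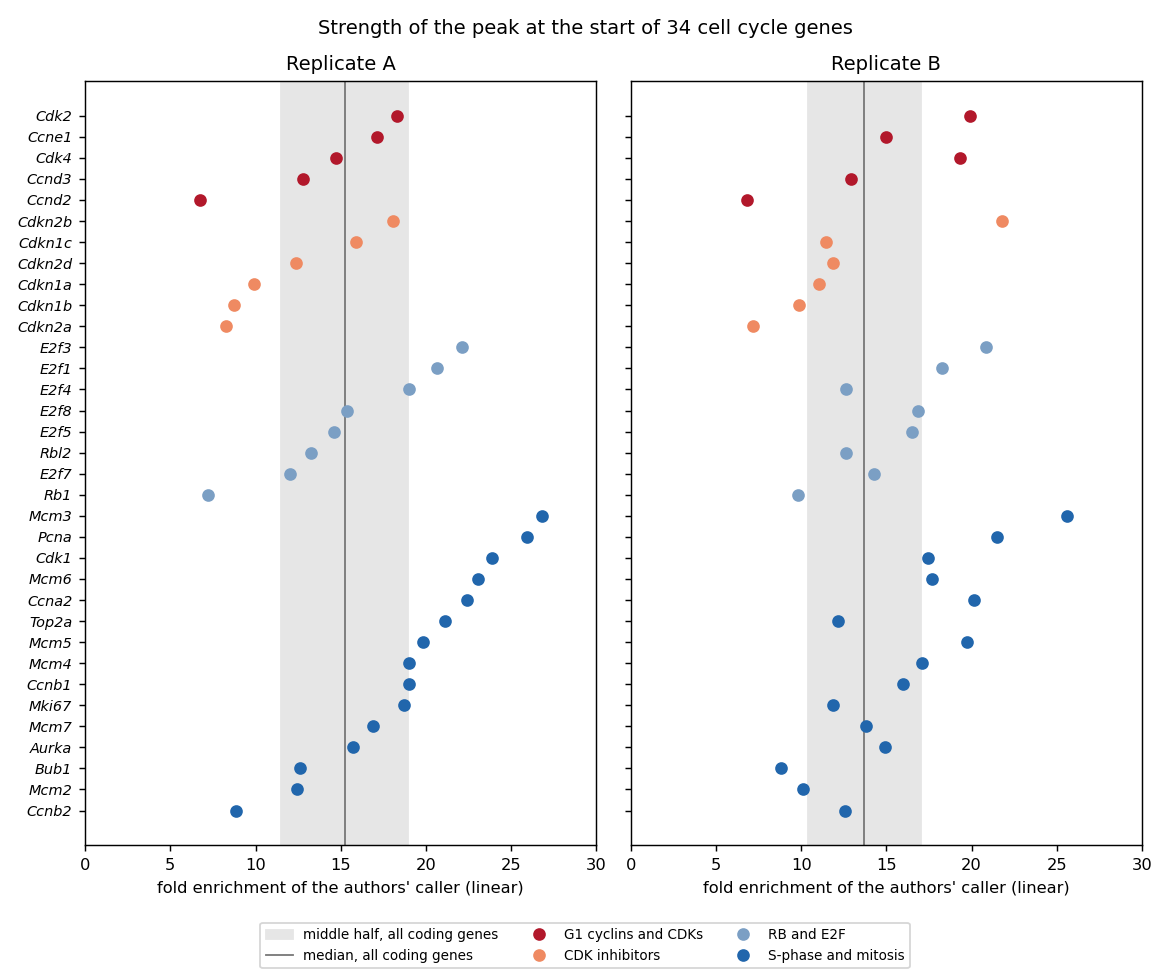
Each point is the fold enrichment of the strongest start peak of 1 gene in replicate A (left) and B (right), on a linear axis, for the 34 genes with an open start; the grey band spans the quartiles of all open protein-coding genes and the line is their median. The strongest peak was chosen by its value in A, and the right panel gives the overlapping entry of B. Mcm3 lies farthest right in both panels, at 26.8 in A and 25.6 in B, and most inhibitors lie left of the median.

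Where the start was listed, summits sat just upstream of it. Over the 27 open genes with a listed start the median summit position was -76 bp, where negative is upstream, and 24 of 27 lay upstream (88.9%), against -59 bp and 80.3% upstream over 7738 open genes. Of the entries in these loci, 97 of 131 in A were replicated (74.0%, 95% Wilson interval 65.9% to 80.8%), against 64.1% of all entries of A, and 96 of 118 in B (81.4%, 73.4% to 87.4%), against 81.7%. By place, the intervals held the background shares in both replicates. In A, 42 of 50 entries at the genes' own ends or starts were replicated (84.0%, 71.5% to 91.7%), against 82.9% of all such entries, and 27 of 49 distal entries (55.1%, 41.3% to 68.2%), against 55.1%. In B, 85.4% of the entries at the genes' own ends or starts were replicated (72.8% to 92.8%), against 89.9%, and 69.2% of the distal entries (53.6% to 81.4%), against 76.7%.

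The promoters of these genes were rich in CpG dinucleotides. RefSeq listed 40 promoters, each of 300 bases from 250 before to 50 after a start, for 33 of the genes, and 29 of the 40 were open (72.5%), against 42.7% of 21262 promoters. Their median ratio of observed to expected CpG dinucleotides, a measure of CpG islands, was 0.857, against 0.567. When all promoters were split into 4 equal groups by this ratio, 23 of the 40 fell in the highest. There 19 of 23 were open (82.6%), against 75.5% of all promoters of that group, and in the next group 9 of 12 were open (75%), against 64.5%. In the group below that 1 of 4 was open (25%), against 25.7%, and in the lowest 0 of 1 was open, against 4.98%. At like CpG content the difference from all promoters was thus smaller than over all 40.

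Motifs were searched on both strands of these 300 bases. The E2F motif was TTTCCCGC, TTTCGCGC, TTTGCCGC or TTTGGCGC, the CHR (cell cycle genes homology region) TTTGAA or TTCGAA, the CCAAT box CCAAT, the GC box GGGCGG and the CRE TGACGTCA. A CCAAT box was present in 15 of 15 promoters of S-phase and mitosis genes and in 26 of all 40 (65.0%), against 38.2% of all promoters. A CHR was present in 9 of 15 promoters of S-phase and mitosis genes (60.0%), against 17.6%, and in 0 of the G1 promoters. The E2F motif was found in 5 of 15 promoters of S-phase and mitosis genes (33.3%) and in 4 of 10 of the RB and E2F genes (40.0%), against 2.85%. The GC box was found in 33 of 40 (82.5%), against 46.2%, and the CRE in 2 of 40 (5.0%), against 2.23%. Among all open promoters, a CCAAT box was in 41.3%, a CHR in 13.0% and the E2F motif in 4.71%. The GC box was in 69.7% of them and the CRE in 3.45%. In the 29 open promoters of the cell cycle genes these shares were 72.4%, 41.4%, 31.0%, 93.1% and 6.9%, in that order. Matches of different motifs overlapped in 2 promoters, those of Cdkn2a and Mcm7. A match is a description of the letters in this window and says nothing of binding.

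**Figure D5:**
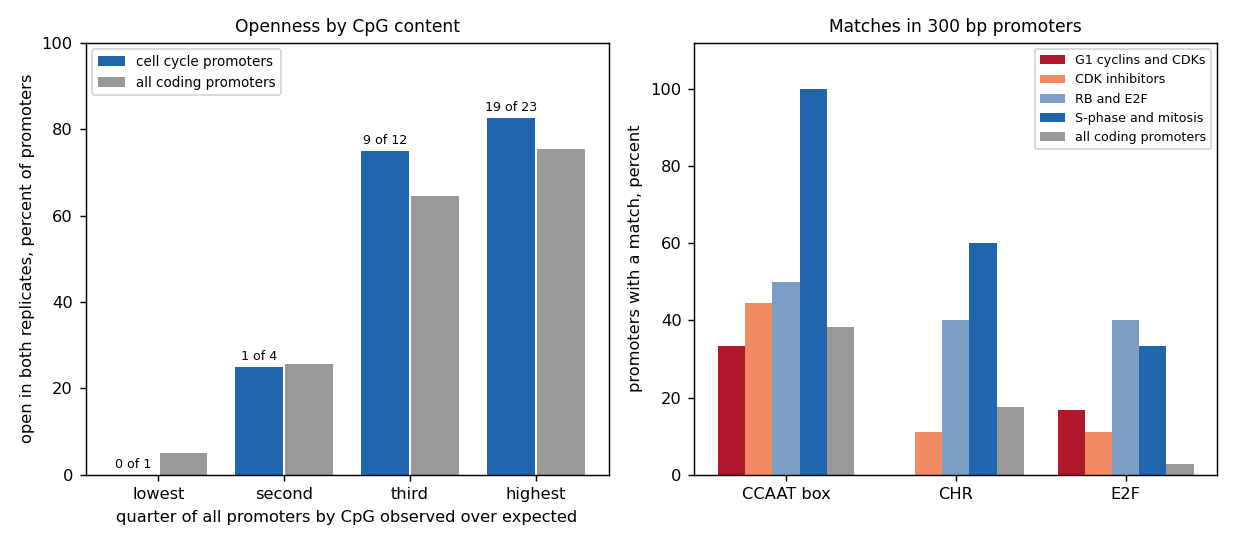
The panels show the promoter features of the cell cycle genes beside all promoters in the RefSeq table, as the share of promoters that hold each motif and the share open in each of 4 equal groups by CpG ratio. The CCAAT box was present in 15 of 15 promoters of S-phase and mitosis genes, against 38.2% of all promoters.

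A list of 51 other cell cycle genes, of replication licensing, nucleotide synthesis, the spindle, checkpoints and growth arrest, was set beside the 43. All 51 had a replicated peak in the locus, with a median of 2, and 47 of 51 had an open start (92.2%), against 43.1% of all protein-coding genes. The others were Gins1, with start peaks in A and in B that did not overlap, Prim1 and Tfdp2, with one in A alone, and Tk1, with none. Distal peaks were found at 12 of 51 (23.5%), against 29.2% of all protein-coding genes, and thus in a smaller share than in the 43 genes (37.2%). Start peaks had a median of 17.4-fold enrichment in A and 15.7-fold in B. Btg2, an antiproliferative gene, had the most replicated peaks of this list, 5; it and the 4 genes without an open start were named after their values were seen.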

How the data were processed

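ATAC-seq of sorted stellate cell nuclei gave 1 peak list per library, in mm10, with peaks called per sample and not pooled. The submitters' processing notes name MACS2, HOMER, bedtools, Picard, SAMtools and STAR 2.7.0, without saying what each did. Any correction of read positions for Tn5 is not given in the sources used. The authors deposited for each peak a fold enrichment, a linear ratio over local background, with its significance from the peak caller as −log10 p and as −log10 q. The deposited score is derived from the −log10 q and was not used. The −log10 q of the entries of A began at 3.035, and that of B at 3.004. Gene spans, starts and promoters came from RefSeq tables of GRCm38.p6, the assembly behind mm10. Starts were listed for 33 of the 43 genes and for 17491 of 21883 protein-coding genes. The genes without one are Ccnd1, Ccnd2, Ccne2, Cdkn1c, Rb1, E2f4, E2f5, Mcm4, Ccna2 and Aurkb.

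Peaks were counted in each gene body and 20 kb on either side with Python 3.11.15, numpy 2.4.6 and pandas 2.3.3, and Wilson intervals with statsmodels 0.14.6. Figures were drawn with matplotlib 3.10.9. The counting was tested on simulated peaks. The members and lists were chosen with earlier results of these data known, and no test across genes was run. The genes described most fully are up to 4 of each class with the most replicated peaks, ties going to the higher fold enrichment in A. Ccnd1, Cdkn1a, Cdkn1b, Rb1, Mki67 and Top2a were added whatever their values. Not every peak of these genes has its values printed, and other genes are described more briefly. A member with no replicated peak is always named. Alternatives were stricter peak sets, a reciprocal overlap of 50%, other flanks and windows, each replicate alone, assignment to the nearest gene end and other gene classes.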

Additional observations from a re-analysis of the deposited data

How the results depend on the processing

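Of 135 alternative values of 14 results, 86 stayed within 1.5 times the main count or share (medians within the spread between replicates) and 49 moved. For G1 genes and for RB and E2F genes both replicates gave the same median, so any change from the main median counted as moved. Each replicate alone was itself among the alternatives. With the 10000 most significant peaks of each list, 21 members had an open start, and the share was 28.6% of inhibitors, 45.5% of RB and E2F genes and 58.8% of S-phase and mitosis genes, against 23.8% of all protein-coding genes. Distal peaks were then at 25% of G1 genes and at 0% of inhibitors, RB and E2F genes and S-phase and mitosis genes, against 9.28%, and the medians per locus were 1.5 for G1 genes, 0 for inhibitors and 1 for S-phase and mitosis genes. With peaks above the median −log10 q, distal peaks were at 0% of inhibitors, 9.09% of RB and E2F genes and 5.88% of S-phase and mitosis genes, against 16% of all protein-coding genes, and the medians were 2 for G1 genes and 1 for inhibitors and for S-phase and mitosis genes. With no flank the medians were 1 for G1 genes, inhibitors and S-phase and mitosis genes, and distal peaks were at 14.3% of inhibitors, 9.09% of RB and E2F genes and 0% of S-phase and mitosis genes, against 15.0%. With 50 kb the medians were 3.5 for G1 genes and 3 for RB and E2F genes and for S-phase and mitosis genes, against 2, and distal peaks were at 54.5% of RB and E2F genes and 47.1% of S-phase and mitosis genes, against 44.1%. By nearest gene end the medians were 1.5 for G1 genes and 1 for inhibitors and for S-phase and mitosis genes, whose distal share was 5.88%, against 21.0%. A reciprocal overlap of 50% gave inhibitors a median of 1. Distal peaks were at 37.5% of G1 genes and 14.3% of inhibitors with a window of 2500 bp, against 25.4%, and at 57.1% of inhibitors with 500 bp, against 32.0%. Moving cyclin E genes and Cdk2 out gave G1 genes a median of 3, and leaving out Ccnd3 and Cdk6, chosen after seeing the data, gave 2; either gene end in place of the start, added likewise, gave 33 members with an open one. Distal peaks were at 0 of 7 replication genes and 5 of 10 mitosis genes (50%), against 29.2% of all protein-coding genes. Each replicate taken alone gave 42 to 43 members with a peak in the locus and 38 to 39 with an open start. The medians were 3 in each for G1 genes, 2 to 3 for inhibitors, 2 in each for RB and E2F genes and 2 to 3 for S-phase and mitosis genes. Open starts were at 75% to 87.5% of G1 genes, 85.7% to 100% of inhibitors, 81.8% to 90.9% of RB and E2F genes and 94.1% of S-phase and mitosis genes in each, against 46.0% of all protein-coding genes in B and 48.2% in A. Distal peaks were at 75% to 87.5% of G1 genes, 28.6% to 42.9% of inhibitors, 45.5% to 54.5% of RB and E2F genes and 41.2% to 52.9% of S-phase and mitosis genes, against 34.7% of all protein-coding genes in B and 42.4% in A. The cause of these shifts was not tested. No paired analysis was possible because A and B are replicates of a single group. Depth is unknown, so a peak missing from 1 list was not detected there and is not shown to be absent.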

Other observations

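Some loci held peaks in 1 replicate alone beside their replicated ones. The locus of Cdk1 held 5 peaks in A alone and 1 in B alone, that of Bub1 4 in A alone, that of Cdkn2c 4 in B alone and that of E2f2 3 in A alone. In Cdk1, 2 of the peaks in A alone lay at the gene's own lower-numbered end, with 9.68-fold and 6.77-fold enrichment. In Mcm5 a peak in A alone, of 16.2-fold enrichment, was distal. These loci were chosen after their values were seen.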
